A study of Homo sapiens with 4 samples.

Results

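Metallothioneins are small, cysteine-rich proteins that bind zinc, copper and cadmium in clusters of thiolate bonds, and they buffer free zinc and protect cells from heavy metals and oxidants. Their genes lie side by side on chromosome 16 and are switched on by MTF1, a zinc-finger transcription factor that binds short metal response elements in their promoters when free zinc rises. Glucocorticoids also induce several of them, and in breast cancer cells MT2A is usually the most abundant isoform. The genes described here were chosen by name, with earlier results of these data known, so they are not a blind choice. The 9 symbols (MT2A, MT1A, MT1E, MT1F, MT1G, MT1L, MT1M, MT1X and MTF1) were looked up among the 20329 genes of the table. Rows were found for 6 of them, namely 5 metallothionein genes and MTF1, and all 6 passed the filter of a mean of at least 1 FPKM (fragments divided by gene length in kilobases and by library size). MT1G, MT1L and MT1M were not analysed here, nor were the 12 other family genes and pseudogenes on a separate list.

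The cells were BM1 (1833) and LM2 (4175), derivatives of the triple-negative breast cancer line MDA-MB-231 that the labels tie to bone and lung metastasis. Each line carried a lentiviral shRNA, either non-specific (control) or against hnRNPM, an RNA-binding protein of the splicing machinery, and all were grown in DMEM with serum. There was 1 library per line and treatment, 4 in all, from stably transduced cultures. The sources used here give neither the shRNA sequence nor whether the cultures were clonal, and effects of hnRNPM loss and other effects of the hairpin cannot be told apart.

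The steps in the lowest values placed the depth between about 22800000 (BM1 knockdown) and 41500000 (LM2 control) fragments per library. HNRNPM, checked for the labels, was left at 16.6% of its control level in BM1 and 15.4% in LM2 (-2.59 ± 0.25 on the log2 scale, standard error, limma adjusted p 0.00318). Among markers of the parent line, VIM (1160 to 2354 FPKM) and CD44 (155 to 223 FPKM) were high and ERBB2 was at 13.5 to 21.9 FPKM. The luminal keratins KRT8 and KRT18 were higher in both knockdowns (KRT8 1181 and 1083 FPKM, against 398 and 485 FPKM in the controls), while the luminal factor GATA3 stayed at 2.5 to 3.33 FPKM. The endothelial marker VWF was at or below 0.163 FPKM, the leukocyte marker CD14 reached 7.09 FPKM in the LM2 knockdown, and the fibroblast markers PDGFRB and COL1A1 were higher in each knockdown than in its control, up to 3.24 and 74.2 FPKM. Genes of the mitochondrial genome took 8.80% to 9.31% of the FPKM sum in the controls and 11.8% to 12.8% in the knockdowns. The part of these markers and genes in the results was not tested.

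The coding sequences show how alike the members are, which bears on how far their values can be told apart. Shown are the coding parts of MT2A (chromosome 16, 56608656 to 56609351, introns included) and MT1X (chromosome 16, 56682541 to 56684046), both from GENCODE 29 transcripts on GRCh38, plus strand, 5′ to 3′ without the stop codon; capitals mark the cysteine codons.

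MT2A: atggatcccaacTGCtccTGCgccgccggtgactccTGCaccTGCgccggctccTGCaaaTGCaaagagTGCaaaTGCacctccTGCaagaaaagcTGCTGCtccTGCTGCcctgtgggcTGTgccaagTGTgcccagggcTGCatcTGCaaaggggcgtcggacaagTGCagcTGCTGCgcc
MT1X: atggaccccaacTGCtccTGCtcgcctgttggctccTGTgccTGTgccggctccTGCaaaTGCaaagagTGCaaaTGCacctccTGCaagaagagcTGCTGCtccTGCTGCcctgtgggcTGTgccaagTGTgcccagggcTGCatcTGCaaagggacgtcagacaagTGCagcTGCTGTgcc

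Each of the 5 metallothionein genes encoded 61 codons over 3 coding exons, and 20 of the 61 codons (32.8%) were for cysteine, at the same 20 positions in every pair. MT2A and MT1X differed at 14 of their coding bases and were 92.3% identical. Over the 10 pairs of genes the identity ran from 88.5% (MT1F and MT1X) to 94.5% (MT1A and MT1E). The longest run of bases shared without a mismatch between 2 whole transcripts was 32 to 65 bases, so a read that lies within such a run can match both. Where the runs lie and how they compare with the read length was not examined. How the authors' program divided fragments that match several members is not known, and the split of signal between members is uncertain for this reason. MTF1, on chromosome 1, is not part of this family of sequences.

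The promoters of MT2A and MT1X are shown because no other metallothionein gene of the list had a promoter window at hand. RefSeq promoter windows (GRCh38.p14) were at hand for 3 of the 9 symbols, MT2A, MT1X and MTF1, and each covers 250 bases before to 50 bases after the start of the gene. The 250 bases before the start are printed 5′ to 3′ for MT2A (chr16:56608334-56608583, plus strand) and MT1X (chr16:56682220-56682469, plus strand). Capitals mark the core of the metal response element, TGCACNC or TGCGCNC, on either strand.

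MT2A: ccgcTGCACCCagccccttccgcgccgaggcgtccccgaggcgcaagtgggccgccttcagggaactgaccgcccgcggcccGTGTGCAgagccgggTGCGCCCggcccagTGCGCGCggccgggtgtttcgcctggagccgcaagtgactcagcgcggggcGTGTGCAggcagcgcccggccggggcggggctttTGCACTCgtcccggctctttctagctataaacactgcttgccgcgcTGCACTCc
MT1X: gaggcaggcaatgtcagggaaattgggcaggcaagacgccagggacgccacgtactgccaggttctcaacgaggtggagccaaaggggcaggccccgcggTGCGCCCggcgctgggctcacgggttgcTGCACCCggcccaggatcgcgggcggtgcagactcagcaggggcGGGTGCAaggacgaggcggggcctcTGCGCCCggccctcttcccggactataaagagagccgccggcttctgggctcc

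The full MT2A window of 300 bases held 8 matches, 5 on the gene's strand and 3 on the other, of which 7 lie in the part printed. The MT1X window held 4 matches, 3 on the gene's strand and 1 on the other, all before the start. No 2 matches overlapped within either window. Both promoters held a match on the gene's strand at nearly the same place, beginning 54 bases before the start in MT2A and 53 bases before it in MT1X. Of 35116 promoters of the same length, 29.6% held at least 1 match, 0.601% held at least 4 and 0.0199% (7 promoters) held at least 8. The MTF1 window held 0 matches of these letters. A match describes the sequence and is not evidence of binding.

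MT2A encodes the main metallothionein of most human cells. In BM1 it measured 452 FPKM with the control shRNA and 164 FPKM after the knockdown, and in LM2 it measured 1148 and 218 FPKM. Both knockdown values lay below both control values, and the LM2 control was the highest of the 4. By rank among 20329 genes, MT2A was the 37th most abundant in the LM2 control and the 125th in the BM1 control, and it moved to rank 271 and 356 in the LM2 and BM1 knockdowns. After the knockdown 36.3% (BM1) and 19.0% (LM2) of MT2A remained. Over both lines MT2A fell by 1.92 ± 0.30 on the log2(FPKM + 1) scale (standard error, limma adjusted p 0.0139).

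MT1X, a close copy that also binds zinc and copper, followed the same order. It measured 35.7 FPKM in BM1 control cells against 13.7 after the knockdown, and 77.6 against 18.5 FPKM in LM2. Again both knockdown values were below both controls, with 38.4% (BM1) and 23.8% (LM2) remaining. Over both lines MT1X fell by 1.67 ± 0.28 (log2 units with standard error; limma, adjusted p 0.0170). The ratio of MT2A to MT1X, both per length, was 12.6 in the control and 11.95 in the knockdown of BM1, and 14.8 and 11.8 in those of LM2, so the levels of both genes kept nearly the same proportion while each varied several-fold. Their transcripts share a run of 63 bases without a mismatch. Whether fragments of the more abundant MT2A were counted for MT1X was not tested.

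MT1E was the second most abundant member. The BM1 libraries held 77.1 FPKM of it before and 57.7 after depletion, and the LM2 libraries 134 and 46.0 FPKM. Both knockdown values were below both controls, but the gap in BM1 was small, with 74.8% of the control level left, against 34.4% in LM2. Its average change of -0.97 ± 0.31 (log2, standard error) did not pass the threshold (limma adjusted p 0.108). The ratio of MT2A to MT1E was 5.86 in the BM1 control and 2.84 in the BM1 knockdown, and 8.60 and 4.75 in the corresponding LM2 libraries, so MT1E made up a larger part of the metallothionein signal in both knockdown libraries than in their controls. Whether the changes of MT1E and MT2A differ was not tested.

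MT1F and MT1A were low. MT1F reached 2.29 FPKM (control) and 2.81 FPKM (knockdown) with BM1 cells and 5.30 and 3.38 FPKM with LM2 cells, and here the controls and knockdowns overlapped. At the inferred depth and a transcript of 690 bases these 4 values stand for about 49, 44, 152 and 64 fragments, so small differences cannot be resolved. The average change of MT1F was -0.16 ± 0.28 (log2, standard error, limma adjusted p 0.767).

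MT1A measured 6.10 FPKM in BM1 control cells against 1.88 after the knockdown, and 2.72 against 0.542 FPKM in LM2. Both knockdown values were below both controls. It fell by 1.29 ± 0.25 (log2, standard error, limma adjusted p 0.0267), a scale that understates the change of so low a gene: in FPKM, 30.8% of the BM1 level and 19.9% of the LM2 level remained. With a transcript of 396 bases its values would stand for about 6 to 75 fragments, but the length used for its FPKM is not known. The MT1A entry of the table (chromosome 16, 56672578 to 56784188, GRCh37 per the submitters' processing notes) spans 111611 bases and covers MT1F, MT1X and 20172 bases of NUP93 on the same strand. Its values are therefore uncertain, and how fragments from those genes were assigned was not tested. It was also the only metallothionein gene that was higher in the BM1 than in the LM2 control.

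MTF1 encodes the factor that drives these genes. Its level was 3.60 FPKM without and 5.11 FPKM with depletion of hnRNPM in BM1, and 3.72 and 3.71 FPKM in LM2. Both controls and the LM2 knockdown were nearly equal, and the BM1 knockdown was the highest. The average change of 0.20 ± 0.26 (log2, standard error) did not pass the threshold (limma adjusted p 0.669). MTF1 activity depends on zinc binding and on its place in the cell, which these data do not measure.

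**Figure D1:**
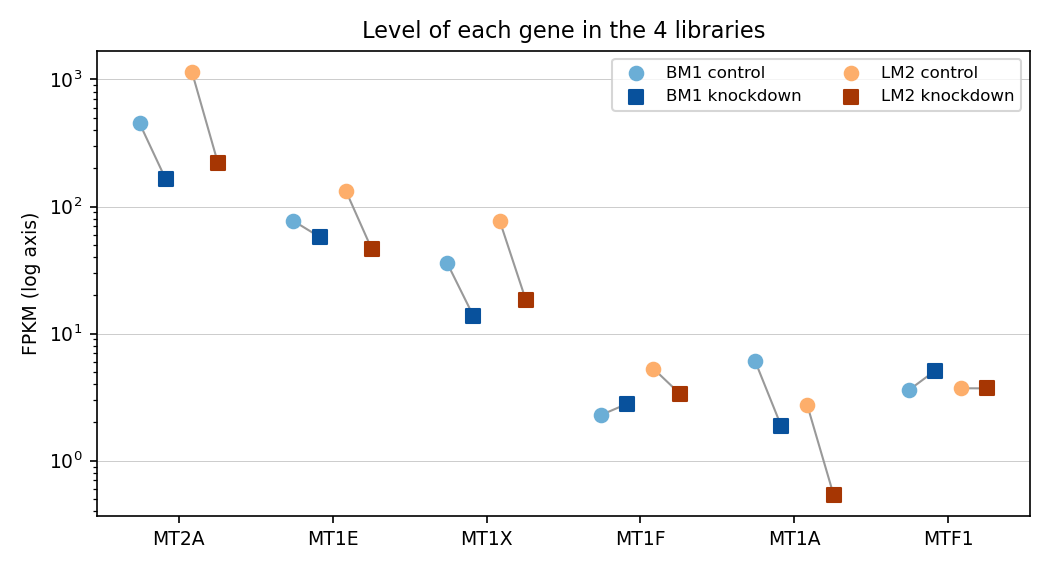
FPKM of the 5 metallothionein genes and MTF1 on a log axis, with 1 point per library (circles for controls, squares for knockdowns, blue for BM1, orange for LM2) and a line joining the control and the knockdown of a line. For MT2A, MT1E, MT1X and MT1A both squares lie below both circles; for MT1F and MTF1 they overlap.

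Of the 6 members, 3 (MT2A, MT1X and MT1A) fell at an adjusted p below 0.05 in limma and 0 rose, while 2.76% of the 13928 genes tested were called lower and 2.71% higher. These 3 members share stretches of sequence and the MT1A entry covers MT1X, so their calls may not be separate. The members were chosen with earlier results of these data known, so their shares are not those of an unselected set. At an unadjusted p under 0.05 there were 4 of the 6 members, the fourth being MT1E, beside 24.9% of all genes tested. The median change of the 6 members was -1.13 (log2), beside -0.01 over all genes tested. Only 42 of the 13928 genes had a lower average change than MT2A, and 79 had a lower one than MT1X. The calls rest on 1 residual degree of freedom: all 3 were lost with a pseudocount of 0.1, with every gene kept, with quantile normalization, when lines were not paired and after leaving out either control or either knockdown library (the fits with 3 libraries also lose the pairing). The change of MT2A stayed between -1.93 and -1.78 in the alternatives that kept all 4 libraries, with adjusted p from 0.00588 to 0.353, and between -2.59 and -1.25 with 3 libraries, with adjusted p from 0.329 to 0.737.

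The lines were then taken one at a time, where 1 library per arm allows no test and a change of at least 2-fold was counted. In BM1, 3 of the 6 members (MT2A, MT1X and MT1A) were at least 2-fold lower in the knockdown library, against 6.2% of all genes tested. In LM2, 4 of the 6 (the same 3 and MT1E) were at least 2-fold lower, against 4.24%. In both lines, 3 of the 6 passed the rule, against 1.95% of all genes. No member was 2-fold higher in either line, where 10.1% (BM1) and 3.83% (LM2) of genes were. MT2A changed by -1.46 in BM1 and -2.39 in LM2, MT1X by -1.32 and -2.01, MT1E by -0.41 and -1.52, MT1A by -1.30 and -1.27, MT1F by 0.21 and -0.53, and MTF1 by 0.41 and -0.0029 (all log2). In LM2, 25 of the 13928 genes had a lower change than MT2A; in BM1, 291 did. The change was larger in LM2 than in BM1 for MT2A, MT1X and MT1E, but a difference between lines cannot be tested with 4 libraries.

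**Figure D2:**
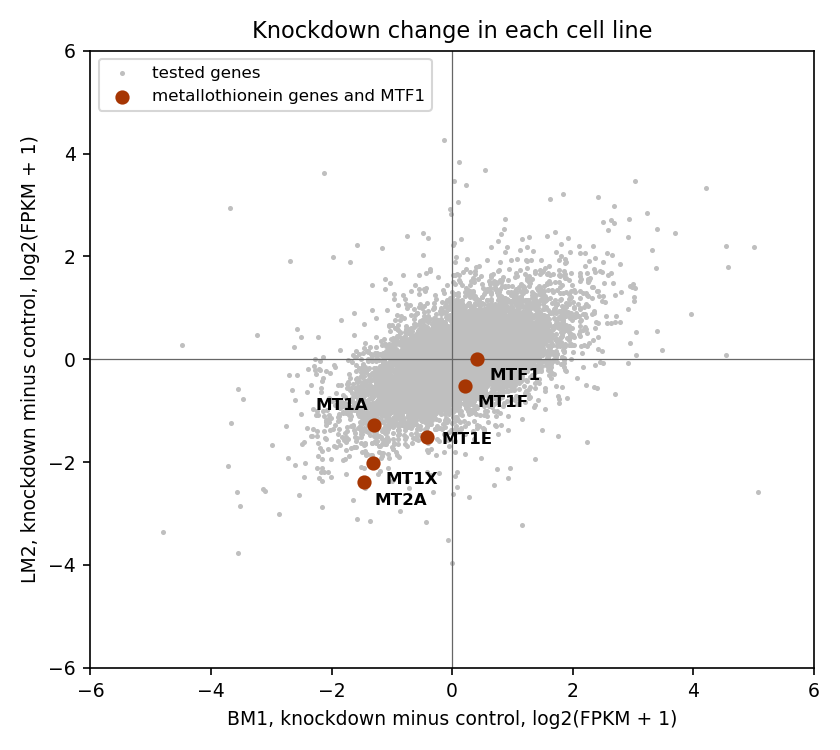
Knockdown minus control in BM1 (x) and LM2 (y) on the log2(FPKM + 1) scale for the 13928 genes tested (grey) and the 6 members (brown). MT2A and MT1X lie at the lower left edge of the cloud, MT1A and MT1E inside or near its lower edge, and MT1F and MTF1 in its middle.

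Metallothionein messages are very short, so other short genes were looked at as a whole. Among 203 other genes with a coding sequence of at most 100 codons, the median change was -0.15 in BM1 and -0.06 in LM2 (log2), against 0.0047 and -0.04 over all genes tested. In BM1, 11.8% of these short genes were at least 2-fold lower in the knockdown, and in LM2 5.91% were, against 6.2% and 4.24% of all genes tested. The 5 metallothionein genes had medians of -1.30 in BM1 and -1.52 in LM2. The short genes were set by coding length and not matched for transcript length or abundance. The part of message length in these changes was not tested. The limit of 100 codons was set on the longest annotated coding sequence of a gene, and by that rule MT1E did not count as short.

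Summed over the 5 genes, metallothionein transcripts came to 573 FPKM in BM1 control cells and 240.1 FPKM after the knockdown, and to 1367 and 287 FPKM in LM2. In the same order this was 0.126%, 0.0551%, 0.315% and 0.0657% of the FPKM of each library. The LM2 control thus held 2.39 times the BM1 control's sum, while the LM2 knockdown held 1.19 times the BM1 knockdown's. MT2A made up 78.8% of the sum in the BM1 control and 68.3% in the BM1 knockdown, and 84.0% and 76.2% in LM2. The share of MT1E went from 13.5% to 24.01% in BM1 and from 9.77% to 16.03% in LM2. MT1X stayed at 5.67% to 6.44%.

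**Figure D3:**
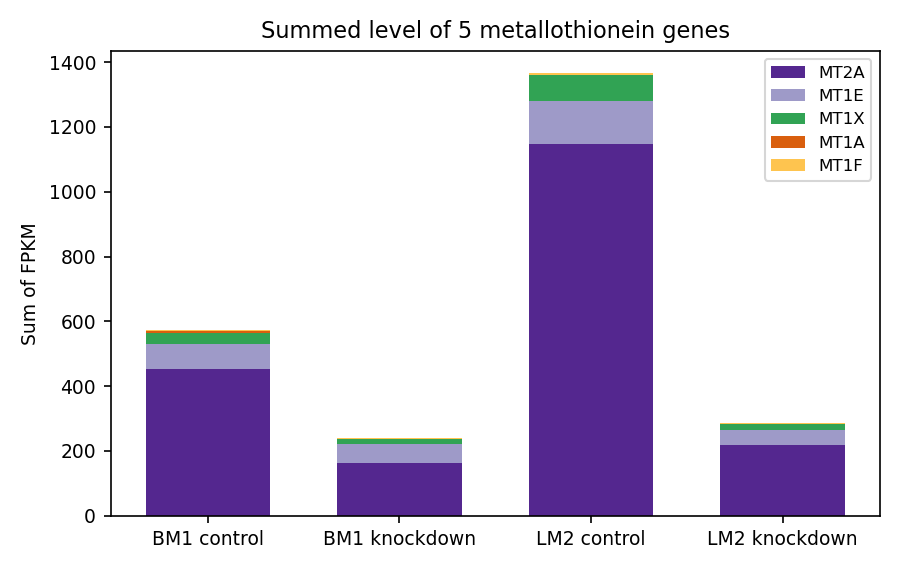
Sum of FPKM of the 5 metallothionein genes in each library, stacked by gene. The LM2 control reaches 1367 and the BM1 control 573, and both knockdowns lie under 300; MT2A is the largest part of every bar.

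The lines differed in their controls. MT2A was 2.54 times higher in the LM2 than in the BM1 control, MT1X 2.17 times and MT1F 2.31 times, whereas MT1A was at 0.447 times the BM1 level. On the log2(FPKM + 1) scale MT2A and MT1X passed the 2-fold rule between controls, 2 of the 6 members and both higher in LM2; 6.98% of all genes were higher by this rule and 5.26% lower. Between the knockdown libraries MT2A was 1.33 times and MT1X 1.34 times higher in LM2, whereas MT1E was at 0.797 times and MT1A at 0.288 times the BM1 level. On the log2(FPKM + 1) scale, where MT1A differed by -0.90, 0 of the 6 passed the rule, against 4.41% of genes higher and 4.63% lower in LM2. These comparisons share their libraries with those of the knockdown, so they are not separate evidence. Over both treatments limma called 0 of the 6 members between lines, with 4.35% of all genes called, and 3 of the 6 were at an unadjusted p under 0.05, beside 22.4% of all genes. Those 3 were MT2A (0.88 ± 0.30 higher in LM2, log2, adjusted p 0.129), MT1X (0.75 ± 0.28, adjusted p 0.160) and MT1A (-0.92 ± 0.25, adjusted p 0.0808). Without the LM2 control library the line difference of MT2A turned to -0.32 and that of MT1X to -0.26. That fit has no term for treatment and sets the LM2 knockdown against both BM1 libraries, so it mixes line with treatment. Between the knockdown libraries alone both genes were higher in LM2, by 0.41 (MT2A) and 0.40 (MT1X) on the log2 scale.

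The genes whose pattern over the 4 libraries was most like that of MT2A were found by the root mean square difference between log2(FPKM + 1) values centred on each gene's mean. The closest were PTPRN2 (difference 0.118), RP11-863P13.3 (0.150), MT1X (0.155), MIR3681HG (0.192) and RCCD1 (0.220). MT1X was thus the third closest of all tested genes, MT1E the 215th, MT1F the 2160th and MT1A the 3636th. PTPRN2 was far lower than MT2A, at 1.60 (control) and 0.112 FPKM (knockdown) for BM1 and 6.36 and 0.572 FPKM for LM2. RCCD1 measured 14.7 FPKM in BM1 control cells against 5.996 after the knockdown, and 40.5 against 10.2 FPKM in LM2. With 4 libraries many genes can share a pattern, and nothing is read from it about shared control.

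Genes that move zinc were compared next. Of 10 SLC30 genes, which export zinc or load it into vesicles, 8 were in the table and 6 were tested; limma called 0 of them for the knockdown or between lines, with 1 and 0 at an unadjusted p under 0.05. Over all genes tested, 24.9% and 22.4% were at an unadjusted p under 0.05 in limma for these contrasts. The median knockdown change of the SLC30 genes was 0.51 (log2). SLC30A1, the plasma membrane zinc exporter and a textbook target of MTF1, measured 3.76 FPKM in BM1 control cells against 8.69 after the knockdown, and 6.53 against 7.26 FPKM in LM2 (0.58 ± 0.29, limma adjusted p 0.262). Both of its knockdown values were above both controls, though the change in LM2 was small (0.13, log2). What this means for MTF1 activity was not tested. SLC30A6, a zinc transporter of the Golgi, measured 8.37 against 21.6 FPKM in BM1 and 7.17 against 13.0 FPKM in LM2 (1.03 ± 0.26, adjusted p 0.0594).

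Of 14 SLC39 genes, the importers, 11 were in the table and all 11 were tested, with 0 called by limma for the knockdown or between lines. At an unadjusted p under 0.05 in limma there were 1 and 0, beside 24.9% and 22.4% of all genes tested. The median knockdown change of the 11 was 0.07. SLC39A6 measured 15.6 against 35.0 FPKM in BM1, control against knockdown, and 18.0 against 24.2 FPKM in LM2 (0.76 ± 0.28, limma adjusted p 0.138). SLC39A14, which also carries iron, gave 25.9 against 35.9 FPKM in BM1 and 30.4 against 45.7 FPKM in LM2 (0.51 ± 0.25, adjusted p 0.245).

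Metallothioneins also bind copper. Of 12 copper-handling genes 11 were tested, and 0 were called for the knockdown by limma, with a median change of 0.10. At an unadjusted p under 0.05 in limma there were 3 for the knockdown and 3 between lines, beside 24.9% and 22.4% of all genes tested. Between lines 1 was called, beside 4.35% of all genes tested. SLC31A2, a copper transporter of internal membranes, was the one called between lines: it measured 5.87 (control) and 10.3 FPKM (knockdown) for BM1 and 13.3 and 29.3 FPKM for LM2 (1.24 ± 0.26 higher in LM2, log2, adjusted p 0.0353). That call was lost in 9 of 11 alternatives.

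Of 11 genes of the oxidative and heavy metal stress response, 1 was called higher in the knockdown and 0 lower, beside 2.71% and 2.76% of all genes tested. The median change was 0.11. Between lines 1 was called, beside 4.35% of all genes tested. At an unadjusted p under 0.05 in limma there were 2 for the knockdown and 5 between lines, beside 24.9% and 22.4% of all genes tested. TXNRD1, thioredoxin reductase, rose in both lines, from 111 up to 534 FPKM (BM1) and from 184 up to 380 FPKM (LM2) (1.65 ± 0.32, limma adjusted p 0.0274), opposite to the metallothionein genes; this call was lost in 8 of 11 alternatives. NQO1, a quinone reductase, was called between lines, at 27.9 (control) and 30.9 FPKM (knockdown) for BM1 and 119 and 96.5 FPKM for LM2 (1.83 ± 0.26 higher in LM2, adjusted p 0.00772), also lost in 8 of 11.

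Glucocorticoids induce metallothionein genes, so genes they induce were listed with the receptor. Of 10 such genes 9 were tested, 0 were called in limma for either contrast, and the median knockdown change was 0.55. At an unadjusted p under 0.05 in limma there were 4 for the knockdown and 3 between lines, beside 24.9% and 22.4% of all genes tested. Of the 9, only 1 (FKBP5) fell in both lines and 6 rose in both. Apart from FKBP5, the genes at an unadjusted p under 0.05 in limma for the knockdown rose in both lines. FKBP5, a chaperone of the receptor and a standard induced gene, measured 11.5 against 6.43 FPKM in BM1, control against knockdown, and 15.7 against 4.19 FPKM in LM2 (-1.22 ± 0.30, limma adjusted p 0.0508), which passed the threshold in 1 of 11 alternatives (the intensity trend, adjusted p 0.0459, over a range of 0.0459 to 0.694), with both knockdowns below both controls as in MT2A. NR3C1, the receptor itself, measured 19.5 against 77.2 FPKM in BM1 and 21.8 against 26.5 FPKM in LM2 (1.10 ± 0.38, adjusted p 0.120).

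The neighbours of the cluster on chromosome 16 served as a local comparison. Of 8 genes, 7 were tested, 0 were called by limma in either contrast, and the median knockdown change was 0.14. At an unadjusted p under 0.05 in limma there was 1 for the knockdown and 1 between lines, beside 24.9% and 22.4% of all genes tested. GNAO1, a G protein subunit, measured 1.47 against 0.780 FPKM in BM1, control against knockdown, and 4.53 against 2.40 FPKM in LM2 (-0.59 ± 0.25, limma adjusted p 0.194). NUP93, a nuclear pore protein, measured 54.6 against 40.4 FPKM in BM1 and 49.7 against 39.5 FPKM in LM2 (-0.37 ± 0.25, adjusted p 0.394); this is the gene that the MT1A entry overlaps.

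**Figure D4:**
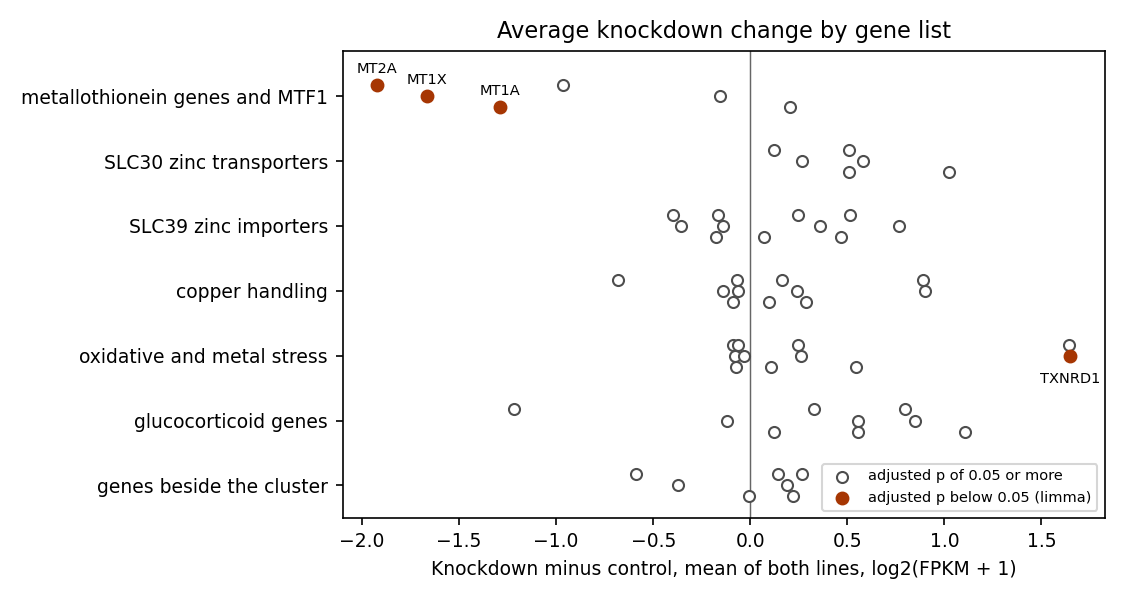
Average knockdown change (mean of both lines, log2(FPKM + 1)) of each tested gene by list, with filled points for genes at an adjusted p below 0.05 in limma. MT2A, MT1X and MT1A are the only filled points to the left and TXNRD1 the only one to the right, at 1.65.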

How the data were processed

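RNA was measured in 4 libraries of stranded, paired-end, polyadenylated RNA, and the authors deposited 1 table of FPKM values with 1 column per library. Per the submitters' processing notes, STAR 2.5.3a, Cuffdiff 2.2.1 and the genome build GRCh37 were used; the sources used here give neither their settings nor the annotation release, nor how fragments that match several genes were counted. Of 20369 entries, 40 with repeated gene IDs were left out. The 13928 genes whose mean reached 1 FPKM were fitted as log2(FPKM + 1) with limma 3.58.1 in R 4.3.3, with terms for cell line and treatment (two-sided, Benjamini-Hochberg adjustment over all 13928, threshold 0.05). The fit has 1 residual degree of freedom per gene. It was also run on simulated data whose noise was drawn from the variances that limma fitted, so that run cannot show whether the calls hold. Cell line pairs the libraries, because both treatments were applied to the same line (r = 0.545 across genes between the deviations of same-line libraries). Each arm within a line is 1 library, so a fixed rule of 2-fold on the same scale stands in for a test. Whole fragments could not be recovered for most values, so no count test was run.

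The members and the gene lists were chosen with earlier results of these data known. The genes named are all members in the table, HNRNPM, the genes of each list that passed the threshold in either contrast (otherwise the 2 with the largest knockdown change) and the 5 genes closest to the most abundant member. The lists cover other metallothionein family genes, SLC30 and SLC39 zinc transporters, copper handling, oxidative and heavy metal stress, glucocorticoid-induced genes and the neighbours of the cluster. No protein table was at hand, so coding length from GENCODE 29 was used for short genes. Alternatives were pseudocounts of 0.1 and 0.5, no filter, size factors, quantile normalization, an intensity trend in limma, no pairing by line, leaving out each library and a 1.5-fold rule.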

Additional observations from a re-analysis of the deposited data

Results flagged for a closer look

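Among the members and the named genes of the lists, 3 had a knockdown library that was higher than its control in BM1 and lower in LM2; markers of cell type were not part of this count. The knockdown change in LM2 minus that in BM1 was -0.735 for MT1F, -0.413 for MTF1 and -0.439 for NQO1 (log2). Each value rests on 1 library per arm and the difference was not tested. The LM2 change of MTF1 was -0.0029, and it was 0.03 with size factors and 0.09 with quantile normalization, so MTF1 has no stable direction in LM2.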

How the results depend on the processing

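Of the results on single genes, the knockdown changes of MT2A, MT1X, MT1A, MT1E and MTF1 kept their direction in all 11 alternatives to the fit over both lines, but the 3 calls (MT2A, MT1X, MT1A) held in 3 of the 11 (a pseudocount of 0.5, size factors and the intensity trend). The counts of genes called for the knockdown over both lines, and of members among them, were 27 and 0 with a pseudocount of 0.1, 0 and 0 with no filter, 0 and 0 with quantile normalization, and 0 and 0 without each of the 4 libraries in turn. Without the replicate block, which is the pairing by line, they were also 0 and 0, and in these settings with 0 genes limma gave 860 to 3735 genes at an unadjusted p under 0.05. Between the lines, genes called were 216 (pseudocount of 0.1), 0 (no filter, with 3634 at an unadjusted p under 0.05 in limma), 104 (quantile normalization), 11 (no replicate block, here no term for treatment) and 6 to 28 (3 libraries), with 0 members in each. Within lines, the 1.5-fold rule gave 5262 genes in BM1 and 3418 in LM2, and a pseudocount of 0.1 gave 1824 in LM2; the members called stayed at 3 and 4. Between controls a pseudocount of 0.1 gave 2636 genes and the 1.5-fold rule 4738, with 4 and 5 members, and a pseudocount of 0.5 gave 4 members. Between knockdowns these settings gave 2013 and 3865 genes, with 1 member each, and 1 member with a pseudocount of 0.5. Fits on 3 libraries reversed some values (MT2A, MT1E, MT1X and MT1F without the LM2 control, MTF1 without the BM1 knockdown, NQO1 without either): the knockdown change ran from -0.63 to 0.31 for MT1F and from -1.11 to 0.95 for NQO1, and the line difference from -0.32 to 2.07 for MT2A, -0.53 to 0.99 for MT1E, -0.26 to 1.76 for MT1X and -0.37 to 0.036 for MTF1. For values that changed call or direction the cause was not tested, except that fits on 3 libraries have fewer samples and no pairing. For the line difference those fits also have no term for treatment. By the estimated fragments, depth limits MT1F and MT1A most, though the estimate for MT1A is the least certain. The estimates take the length of 1 transcript per gene, and the length behind the FPKM is not known for any member. In MT2A, with about 2937 or more fragments in each library by this estimate, counting error would be small.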
